A study of Mus musculus with 2 samples.

Results

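Integrins are surface receptors made of 1 alpha and 1 beta chain, and they hold a cell to other cells and to matrix. Itgam, Itgb2, Itgb2l, Itgal, Itgax, Itga4, Itga5, Itga6, Itgb1 and Itgb7 were followed here. They were chosen with earlier results of these data known, and are 10 of the 35522 features in each expression table, taken by their symbols. Their transcripts were read in neutrophils cultured without or with tumor exosomes. Of 27 integrin chain genes of the mouse that were looked up (18 alpha and 9 beta chains), these 10 held 97.7% of the summed RPKM (a read count corrected for transcript length and for the depth of the library) in the first sample and 98.2% in the second.

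The cells were sorted from Balb/C mouse bone marrow as CD11b-positive, Ly6G-high and Ly6C-low or negative neutrophils, and both cultures contained 10 ng/ml GM-CSF, a growth factor of myeloid cells. The PBS group received PBS and the exosome group 20 μg/ml exosomes for 3 days. The exosomes came from CT26-SDCSCs, which are sphere-derived cancer stem cells grown from CT26, a murine colon carcinoma line, in stem cell medium. The labels do not give the age and number of the animals behind a library. For age, the paper's methods state only a range for its Balb/C mice. Each group is 1 library. No spread between cultures can therefore be given for any value, and no test between the treatments was possible. The comparison asks which receptors of adhesion and migration differed in their transcripts after exosome treatment.

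The beta2 chain (Itgb2, CD18) pairs with alpha L as LFA-1, with alpha M as Mac-1 and with alpha X, and these leukocyte integrins let neutrophils arrest on endothelium, crawl and take up complement-coated particles. The beta1 chain (Itgb1, CD29) pairs with alpha 4, alpha 5 and alpha 6, which bind VCAM-1, fibronectin and laminin, and beta7 (Itgb7) pairs with alpha 4 or alpha E. Itgb2l encodes a beta2-like chain known from mouse neutrophils. Itgam is also the gene of CD11b, so the sort itself required its protein.

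Genes with 0.25 RPKM or more in each sample were kept, and a ratio of 2 or more in either direction was called higher or lower. All 10 chains were kept. Itgb1, Itga4 and Itga5 were at least 4-fold higher with exosomes, Itgb2l, Itgax and Itgb7 were at least 2-fold lower, and Itgb2, Itgam, Itgal and Itga6 stayed within 2-fold. The 3 chains called higher (30% of 10) stood against 31.5% of 9698 kept genes, which is close to the same share, and the 3 called lower stood against 5.62%. At a limit of 4-fold the 3 higher chains stood against 8.52% of the genes and the 1 lower chain, Itgb2l, against 1.14%. The median log2 ratio was 0.07 over the 10 chains and 0.53 over all kept genes. When that median was removed, 16.8% of genes were higher and 13.2% lower. With the median of the 500 genes nearest in level removed instead, the shares were 12.4% and 13.7%. The 3 higher chains kept their 2-fold call under both, whereas 3 and 4 chains were then lower. None of them kept the 4-fold call, since their log2 ratios were then 1.68 and 1.92 for Itgb1, 1.99 and 1.70 for Itga4, and 1.48 and 1.63 for Itga5.

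**Figure D1:**
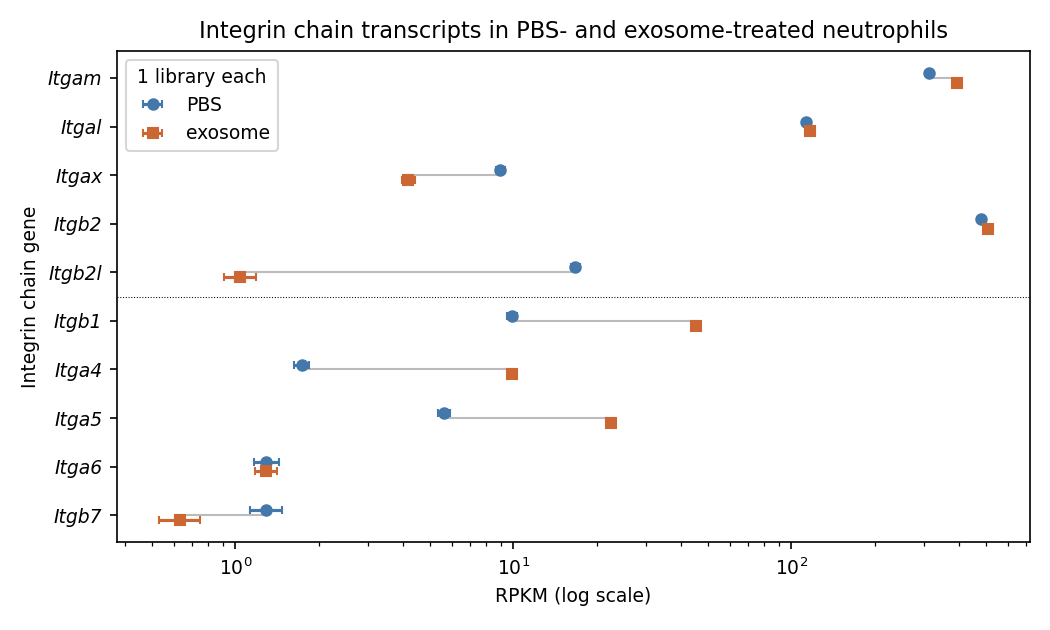
RPKM (log scale) of the 10 integrin chain genes in the PBS library (circles) and the exosome library (squares), with the beta2 family above the dotted line and the beta1 and beta7 family under it. Bars are 95% counting intervals from estimated reads and cover no variation between cultures. Itgb2l spans 16.72 to 1.04 RPKM, while Itgb1, Itga4 and Itga5 lie to the right after exosomes.

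Marker genes of the cells moved as well, and these values stand beside every result below. Of 12 neutrophil genes, 10 were at least 2-fold lower with exosomes, among them Ly6g from 286.96 to 56.19 RPKM, while Lcn2 was higher and Mmp9 stayed within 2-fold. Their summed RPKM was 86215 and 34543. Of 14 monocyte and macrophage symbols 13 were listed, and the symbol not listed, Adgre1, is another name of Emr1. Of these 13 genes, 6 reached 0.25 RPKM in PBS and 12 did so with exosomes. Their sum was 164.7 and 463.0, with Emr1 (F4/80) at 20.91 and 151.51 and Csf1r at 58.1 and 152.64, whereas Cd163 was at 0.01 and 0.00563. The 6 B cell genes summed to 108.1 and 66.9 RPKM, the 8 T and NK cell genes to 57.8 and 7.83 (of which Cd3d held 56.44 and 7.02), and the 6 megakaryocyte and platelet genes, Itga2b and Itgb3 among them, to 42.6 and 39.2. Dendritic cell genes summed to 4.19 and 2.65, those of eosinophils, basophils and mast cells to 8.84 and 4.89, and erythroid genes to 2.4 and 0.455. Genes of epithelial and carcinoma cells summed to 0.61 and 0.214 RPKM, and Krt8 was listed at 0 in both samples. In such bulk samples, a shift in the kinds of cells and a shift in RNA per cell cannot be told apart. The part of other cell types in the integrin values was not tested.

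The common beta2 chain led both samples. Itgb2 (chromosome 10, 77530252 to 77565708, plus strand, GRCm38) stood at 480.23 RPKM after PBS and at 508.29 RPKM after exosomes. This is a ratio of 1.06 and a log2 ratio of 0.08, with a 95% counting interval of 0.07 to 0.09. Its level ranked 69th among the features in PBS and 60th with exosomes.

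Itgam and Itgal, the alpha chains of Mac-1 and LFA-1, followed. Itgam (chromosome 7, 128062640 to 128118491, plus strand) stood at 312.74 and 393.4 RPKM, a log2 ratio of 0.33 with an interval of 0.32 to 0.34. Itgal (chromosome 7, 127296260 to 127335138, plus strand) stood at 112.93 and 116.9 RPKM, a log2 ratio of 0.05 (0.03 to 0.07). The direction of these small differences depended on the scaling. With the median log2 ratio of all genes removed they became -0.20 for Itgam, -0.48 for Itgal and -0.44 for Itgb2, and with the median of genes of like level removed they were 0.33, 0.04 and 0.08. The ratio of Itgam to Itgal within a library was 2.77 in PBS and 3.37 with exosomes. The difference was 0.28 on the log2 scale, with a counting interval of 0.26 to 0.30.

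Itgax, the CD11c chain common on dendritic cells and macrophages, lies 11055 bases past the end of Itgam on chromosome 7 (128129547 to 128150657, plus strand). It stood at 8.98 RPKM in PBS and 4.19 with exosomes, which is 2.14-fold lower. Its log2 ratio of -1.10 had a counting interval of -1.20 to -1.0, so the 2-fold limit was passed by a small margin. Against Itgam in the same library, Itgax was 34.8-fold less abundant per length in PBS and 93.9-fold less with exosomes. Its transcript shares 9.61% of its 50-base words with Itgad, which encodes alpha D. How reads common to both were assigned is not stated, but Itgad was near 0, at 0.01 and 0.00319 RPKM.

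The largest change among the chains was that of Itgb2l (chromosome 16, 96422288 to 96443619, minus strand). Its level was 16.72 RPKM after PBS and 1.04 RPKM after exosomes, 16.1-fold lower, with a log2 ratio of -4.01 and a counting interval of -4.21 to -3.81. Only 2 of the 9698 kept genes had a lower ratio. Against Itgb2, which it resembles, Itgb2l amounted to 3.48% in PBS and 0.205% with exosomes. The longest transcripts of these genes were 78.6% identical over 1947 aligned bases, yet no word of 50 bases and 1 word of 25 bases was common to both. Igsf5 overlaps Itgb2l on the opposite strand and was low, at 0.11 and 0.00555 RPKM. Of the 12 neutrophil marker genes 10 were also lower, among them the granule genes Camp (381.38 and 33.92 RPKM) and Ngp (862.34 and 85.01 RPKM). Lcn2 of the same list was higher (1625.81 and 4080.94 RPKM), and Mmp9 stayed within 2-fold (849.26 and 607.79 RPKM). Any link of these genes to the Itgb2l value was not tested.

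The chains of the beta1 family that were called higher shared no 50-base word with any other integrin transcript. Itgb1 (chromosome 8, 128685654 to 128733200, plus strand) stood at 9.87 RPKM in PBS and 45.58 with exosomes, 4.62-fold higher, with a log2 ratio of 2.21 (counting interval 2.15 to 2.27). By level it went from rank 3640 to rank 1243 among the features. Itga4, the alpha 4 chain (chromosome 2, 79255426 to 79333123, plus strand), stood at 1.73 and 9.91 RPKM, a log2 ratio of 2.52 with an interval of 2.43 to 2.61. This was the 348th highest ratio of the 9698 genes. Itga5, the alpha chain of the fibronectin receptor (chromosome 15, 103344286 to 103366763, minus strand), stood at 5.62 and 22.52 RPKM, a log2 ratio of 2.0. Its interval of 1.93 to 2.08 includes the limit of 4-fold. All 3 were also higher than genes of like level, by 1.92 for Itgb1, 1.70 for Itga4 and 1.63 for Itga5 on the log2 scale. Cerkl, which overlaps Itga4 on the other strand, was at 0.04 and 0.07 RPKM.

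Itga6 and Itgb7 did not share this pattern. Itga6, the laminin receptor chain (chromosome 2, 71745616 to 71858416, plus strand), was at 1.29 RPKM in both samples, with a counting interval of the log2 ratio of -0.20 to 0.20. Since genes of like level had a median log2 ratio of 1.11, it stood at -1.11 relative to them and was called lower under that scaling. Itgb7 (chromosome 15, 102215995 to 102231944, minus strand) was at 1.29 RPKM in PBS and 0.63 with exosomes, a log2 ratio of -1.03. Counting error alone gave an interval of -1.35 to -0.72, in which the 2-fold limit lies, and the call was lost on rescaling to the same summed RPKM (-0.99) and with a pseudocount of 0.25 (-0.81). The intervals of Itga6 and Itgb7 overlapped in PBS, as did those of Itga6 and Itgb2l with exosomes, so the order of these low chains was not resolved at this depth. All other neighbours in the order of levels had intervals apart from each other.

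**Figure D2:**
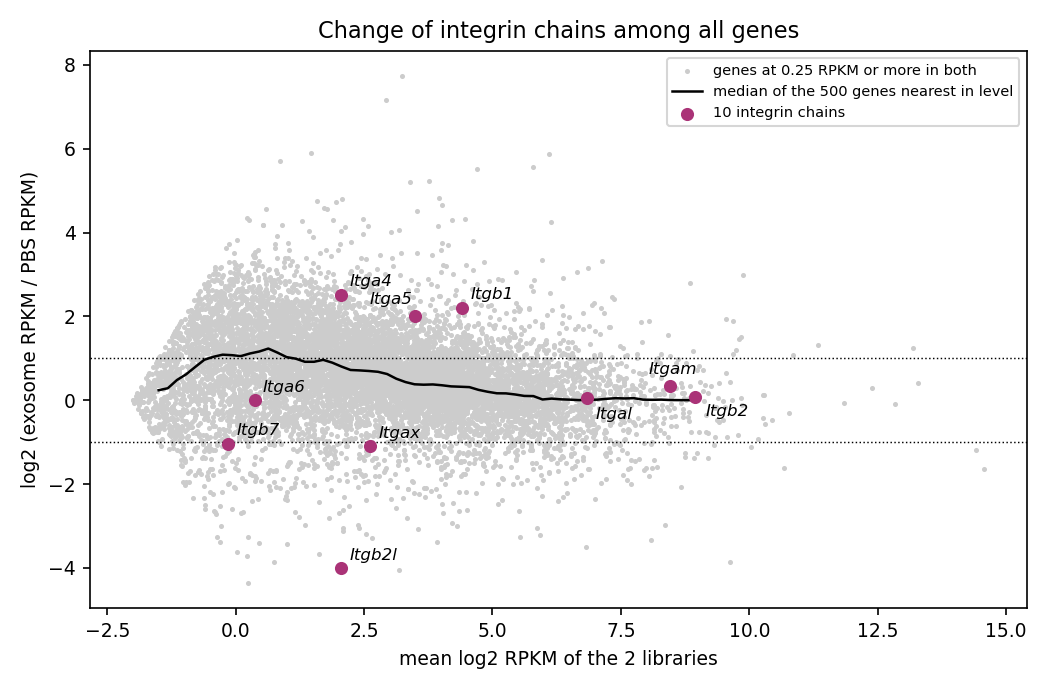
Log2 ratio of exosome to PBS RPKM (y) against the mean log2 RPKM of the 2 libraries (x) for 9698 genes in grey, with the 10 integrin chains named, the median of the 500 genes nearest in level as a line and the 2-fold limits dotted. Itgb1, Itga4 and Itga5 lie near or above 2, and Itgb2l lies at -4.01 among the lowest genes.

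Of the 10 chains 7 had an entry in the RefSeq promoter table (GRCm38.p6). The 250 bases before the start are given for the 3 chains that were higher together and for Itgb2l, because they stood at the ends of the range of ratios. Both strands were searched for GGGCGG (the GC box), GAGGAA (the core of sites of PU.1, a myeloid factor), TATAAA (the TATA box), TTGCNNAA (a core of C/EBP sites) and a loose NF-κB motif (3 G, 5 bases of any kind and 2 C), and matched letters are in capitals. No matches overlapped in these 4 windows. They lie on chr8:128685404-128685653 (plus strand) for Itgb1, chr2:79255176-79255425 (plus strand) for Itga4, chr15:103366792-103367041 (minus strand) for Itga5 and chr16:96443615-96443864 (minus strand) for Itgb2l.
Itgb1: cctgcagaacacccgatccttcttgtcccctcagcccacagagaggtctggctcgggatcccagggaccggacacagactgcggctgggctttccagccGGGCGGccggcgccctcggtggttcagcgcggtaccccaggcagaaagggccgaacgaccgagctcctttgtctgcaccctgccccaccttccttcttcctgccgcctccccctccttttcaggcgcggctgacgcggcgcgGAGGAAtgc
Itga4: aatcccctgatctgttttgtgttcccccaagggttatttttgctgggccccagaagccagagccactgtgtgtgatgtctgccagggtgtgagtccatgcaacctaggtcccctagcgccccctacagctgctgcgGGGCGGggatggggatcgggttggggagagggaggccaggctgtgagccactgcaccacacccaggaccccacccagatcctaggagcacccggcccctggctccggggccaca
Itga5: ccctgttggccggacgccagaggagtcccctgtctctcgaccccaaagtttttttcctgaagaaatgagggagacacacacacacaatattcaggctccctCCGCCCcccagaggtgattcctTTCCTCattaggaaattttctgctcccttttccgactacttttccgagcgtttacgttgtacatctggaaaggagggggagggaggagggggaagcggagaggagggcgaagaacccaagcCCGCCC
Itgb2l: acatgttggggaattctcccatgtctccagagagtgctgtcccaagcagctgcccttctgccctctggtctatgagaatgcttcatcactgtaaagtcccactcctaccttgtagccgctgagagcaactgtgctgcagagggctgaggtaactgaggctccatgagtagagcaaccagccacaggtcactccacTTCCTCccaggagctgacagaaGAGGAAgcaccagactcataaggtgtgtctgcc
The GC box stood in 4 of the 7 windows searched, those of Itgb1, Itga4, Itga5 and of Itgam, which stayed within 2-fold, and 32.7% of 32851 promoters held it. It was not in those of Itgb2l, Itgax and Itgb7. Itgb1 and Itga4 had a GC content of 68% and 64%, above 87.8% and 80.8% of all promoters, while Itga5 and Itgb2l were at 55.6% and 54.4%. GAGGAA stood 2 times each before Itgb2l and Itgam and 1 time each before Itgb1 and Itga5, against 23.3% of promoters with at least 1. TATAAA and TTGCNNAA stood in none of the 7 windows, and 12.4% and 9.56% of all promoters held them. The loose NF-κB motif was absent from the 4 windows printed and from that of Itgax. It stood 2 times, with overlap, before Itgam and 1 time before Itgb7, and 45.8% of all promoters held it. These are matches of letters and not measured sites.

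Ratios between chains of the same library do not depend on a factor common to all genes of that library. Itgb2 was 48.7-fold more abundant per length than Itgb1 after PBS and 11.2-fold after exosomes. The log2 ratio of Itgb1 over Itgb2 was -5.60 and -3.48, a difference of 2.13 with a counting interval of 2.06 to 2.19. It was 1.84 when the median of genes of like level was removed from each chain, a correction that differs between levels. Among the 18 alpha chains, Itgal, Itgam and Itgax together held 95.6% of the summed RPKM in PBS and 91.6% with exosomes. Itga4, Itga5 and Itga6 held 1.90% and 6.0%. Itgam, the chain used in the sort, held 68.8% and 70.0% by itself. With Itgam left out, the beta2 partners held 85.8% and 72.0% of the rest. In both libraries most of the integrin chain RNA was thus of the beta2 family.

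The sums of alpha chains were set against their beta chain. Summed over alpha L, M, X and D, the partners of beta2 amounted to 0.905 times the RPKM of Itgb2 in PBS and 1.01 times with exosomes. The 12 alpha chains that can pair with beta1 amounted to 1.61 times Itgb1 in PBS and 0.983 times with exosomes. This was a log2 difference of -0.71 with a counting interval of -0.79 to -0.64. Some of the 12, Itgav and Itga4 among them, also pair with other beta chains. Itgav held 6.57 RPKM of the sum in PBS, and without it the values were 0.945 and 0.754 times, a log2 difference of -0.33 (-0.41 to -0.24). Itga4 went from 0.175 to 0.217 times Itgb1 and Itga5 from 0.569 to 0.494 times. Itga4 over Itgb7, its other beta chain, went from 1.34 to 15.7 times. On the log2 scale that difference was 3.55 (3.23 to 3.87).

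**Figure D3:**
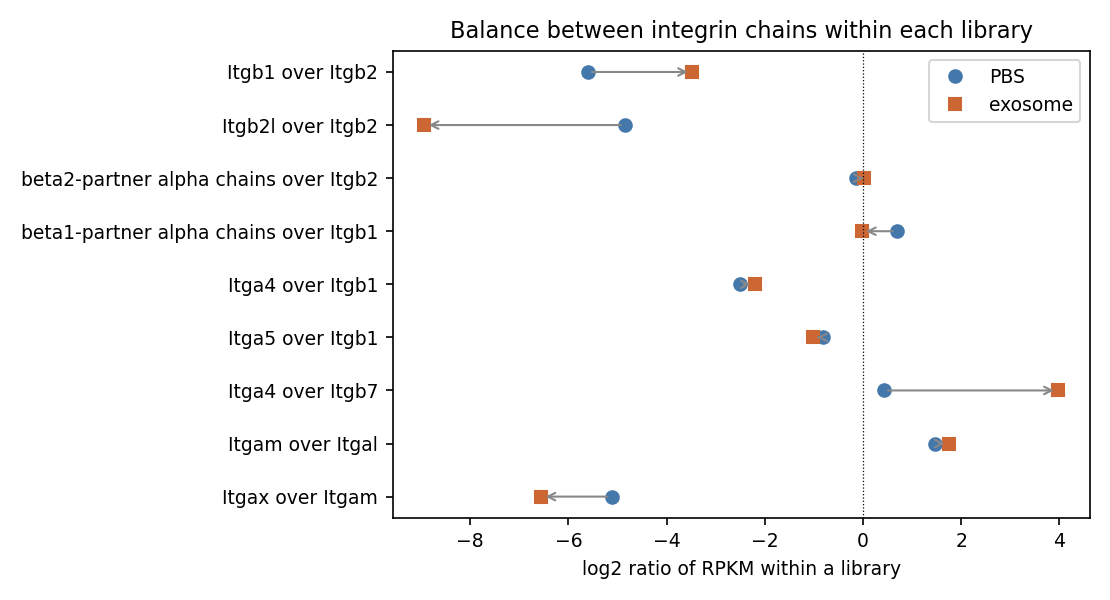
Log2 ratio of RPKM between integrin chains within the PBS library (circles) and within the exosome library (squares), with an arrow from the first to the second. Itgb1 over Itgb2 goes from -5.60 to -3.48, Itga4 over Itgb7 from 0.42 to 3.98 and Itgb2l over Itgb2 from -4.84 to -8.93. Sums of alpha partners over their beta chain end close to 0, for beta1 with Itgav counted. Without Itgav, which is not drawn, the beta1 ratio ends at -0.41.

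Of the 17 integrin chains outside the 10, only Itgav, Itgb3, Itgb5, Itga2b and Itga8 reached 0.25 RPKM in either sample. Itgav, a chain of vitronectin receptors, was at 6.57 and 10.46 RPKM, and its partner chains Itgb3 and Itgb5 were at 5.07 and 4.49 and at 5.82 and 2.53. Itgb5 was the only one of the 4 kept that passed 2-fold, being 2.30-fold lower. Itga2b, the platelet chain that pairs with Itgb3, was at 4.19 and 2.22 RPKM beside the platelet gene Pf4 at 19.1 and 23.32. Itga8 was at 0.36 RPKM in PBS and 0.04 with exosomes. Over all 27 chains, 3 of 14 kept (21.4%) were higher and 4 lower by 2-fold, beside 31.5% and 5.62% of all kept genes.

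Integrins are switched on from within by talin and kindlin under the control of the GTPase Rap1. Of 28 genes of this route 23 were kept, 1 of them (4.35%) was at least 2-fold higher and 2 were lower, beside 31.5% and 5.62% of all kept genes. The median log2 ratio was 0.11, beside 0.53 of all kept genes. Fyb, which encodes the adaptor ADAP, was at 125.08 and 452.71 RPKM, a log2 ratio of 1.86. Rasgrp2, the exchange factor that loads Rap1, was at 39.27 and 13.92 RPKM, 2.82-fold lower. Named after their values were seen, the other gene called lower was Skap1 (1.58 and 0.28 RPKM), Tln1 (talin) was at 121.45 and 130.68 RPKM and Fermt3 (kindlin-3) at 45.46 and 81.62. Both stayed within 2-fold.

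Signals from bound integrins run through Src family kinases, Syk and adaptors. Of 34 such genes 30 were kept, 3 (10%) were higher and 1 was lower, and the median log2 ratio was 0.33. The same values over all kept genes were 31.5%, 5.62% and 0.53. Among the higher genes were Fcer1g (538.25 and 1489.47 RPKM), which encodes an adaptor with an activation motif, and Vav2 (1.2 and 3.01 RPKM), which encodes an exchange factor of small GTPases. Actn1, which encodes the actin crosslinker alpha-actinin, was lower at 129.09 and 48.8 RPKM, a log2 ratio of -1.40.

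Ligands of integrins made by these cells were fewer, since 9 of 32 genes were kept. C3, whose cleaved form is bound by Mac-1, was at 137.25 and 512.42 RPKM, a log2 ratio of 1.90. Icam2 was at 5.4 and 16.01 and Icam1 at 22.82 and 32.35 RPKM, both ligands of LFA-1. Thbs1, which encodes thrombospondin 1, was at 68.66 and 17.18 RPKM, 4.0-fold lower. With Emilin1 (0.53 and 3.53 RPKM, named after its value was seen), 3 ligand genes (33.3% of those kept) were higher and 1 was lower, and the share higher was close to the 31.5% of all kept genes. The share lower over all kept genes was 5.62%, and the median log2 ratio of the ligand genes was 0.50. Fn1, which encodes a ligand of alpha 5 beta1, stood at 0.05 and 0.23 RPKM. Vcam1, which encodes a ligand of alpha 4 beta1, stood at 0.25 and 0.25 RPKM. They are not the only ligand genes of these integrins.

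**Figure D4:**
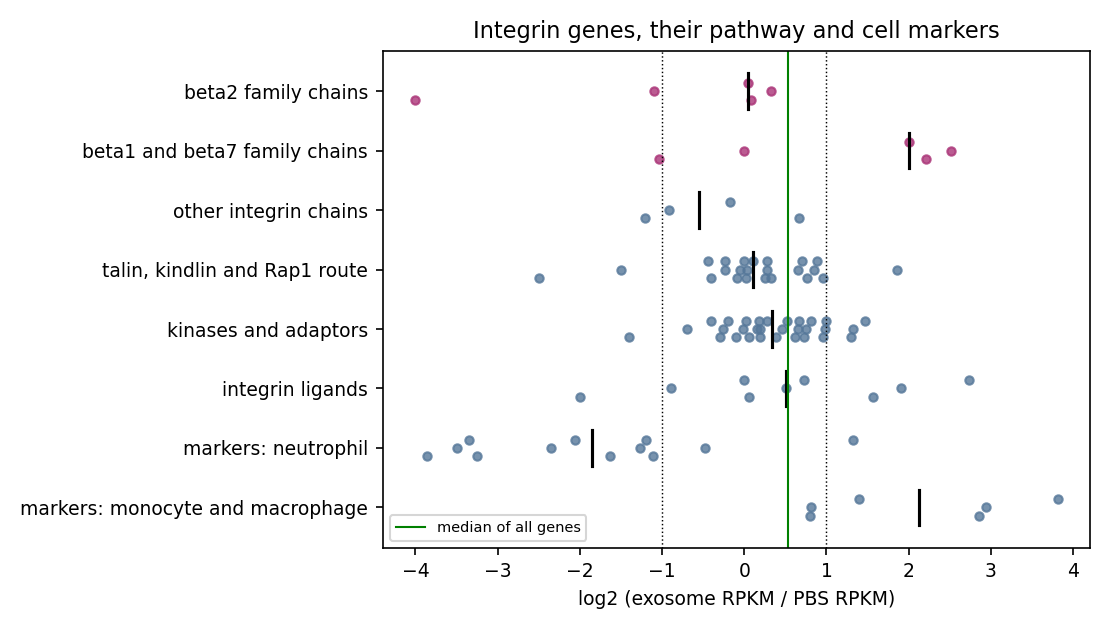
Log2 ratio of exosome to PBS RPKM of kept genes, 1 point a gene, in the 2 integrin families, the other integrin chains, 3 lists of the integrin pathway and 2 lists of cell markers. Black bars are list medians, the green line is the median of all kept genes (0.53) and dotted lines are the 2-fold limits. Chains of the beta1 and beta7 family run from 2.52 for Itga4 to -1.03 for Itgb7, and most genes of the talin and kinase lists lie inside the limits.

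The calls were set against other ways of scaling. Itgb1, Itga4 and Itga5 ranged from 1.67 to 2.25, from 1.70 to 2.57 and from 1.46 to 2.05 on the log2 scale over 8 alternatives, and Itgb2l from -4.81 to -3.12. Those 4 calls at 2-fold held throughout. The alternatives with no minimum and with a minimum of 1 RPKM only decide which chains are kept. They leave each ratio as deposited, so they are no check on its size. Itgax lost its call with a pseudocount of 1 (-0.94).

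**Figure D5:**
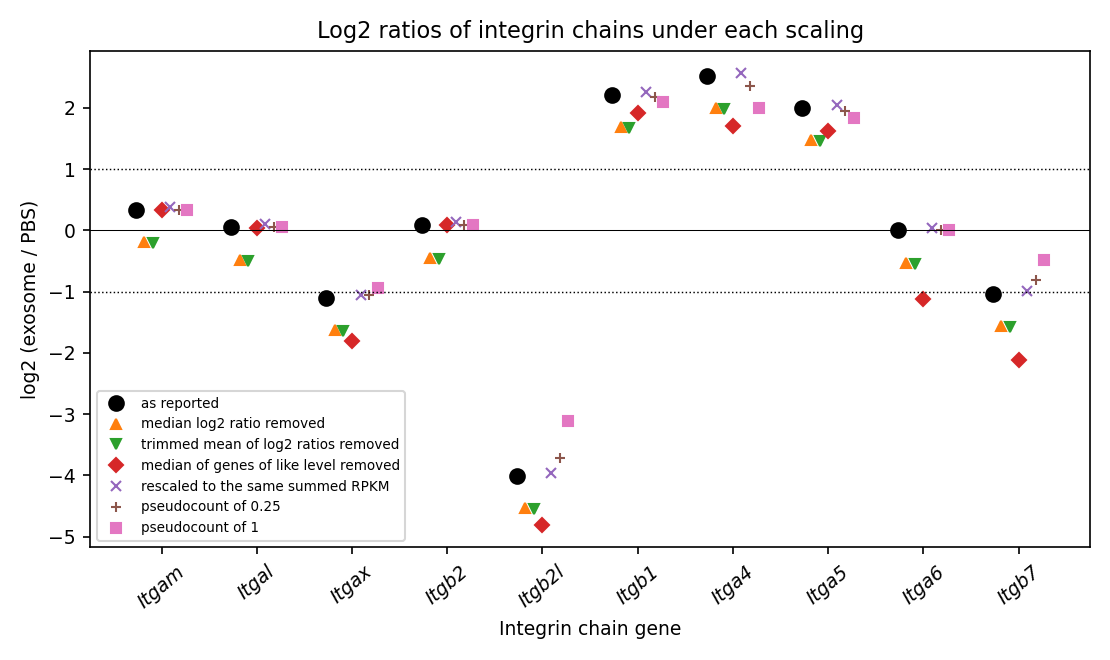
Log2 ratio of exosome to PBS for each integrin chain as deposited (black) and under 6 other scalings or pseudocounts, with the 2-fold limits dotted. Itgb1, Itga4, Itga5 and Itgb2l stay past a limit in every setting drawn, while Itgam, Itgal and Itgb2 lie on either side of 0.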

How the data were processed

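RNA of PBS-treated and exosome-treated neutrophils was sequenced with 1 library per group. Per the study's methods, the authors trimmed reads at a Phred score of 20, used CLC Genomics Workbench 8.0 for the analysis, and deposited RPKM values for each feature and sample. The submitters' processing notes name the mm10 build, and the annotation and the handling of multiply mapped reads are not given in the sources used here. RPKM above 0.01 was rounded to 0.01.

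Ratios were taken from the deposited RPKM without a pseudocount, at a minimum of 0.25 RPKM in both samples and a limit of 2-fold. Depth was estimated from values below 0.01 RPKM, where many stand for 1 read of the longest GENCODE M21 transcript (GRCm38, the coordinates of mm10), and came to 66.0 M reads in the PBS library and 79.1 M in the exosome library. The ratio of depths read without lengths was 1.20. Itgb7, the lowest chain, then rested on about 228 and 134 reads, and Itgam on 96585 and 145746. Intervals (95%) are exact Poisson for a level, Clopper-Pearson for a ratio of 1 gene and a delta-method interval for ratios between chains, and cover counting error only. No p-value was computed. All 10 chains were named, with the other integrin chains at 0.25 RPKM or more and up to 3 genes in each direction per list, of which 1 is not reported here. The chains and lists were chosen with earlier results of these data known. The scripts (Python 3.11.15) were tested on simulated data.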

Additional observations from a re-analysis of the deposited data

How the results depend on the processing

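Among 79 log2 ratios of the 10 chains under other settings, 4 lost a 2-fold call. These were Itgb7 under the rescaling to the same sum and both pseudocounts and Itgax with a pseudocount of 1. The 79 include the ratios with no minimum and with a minimum of 1 RPKM. Those equal the deposited ratios and could not lose a call. Itga6 gained a lower call (-1.11) when the median of genes of like level was removed, and no called chain changed sign. Itgb7 has no value at a minimum of 1 RPKM. At the 2-fold limit, 3 chains were higher under every setting, and the number lower was 1 with a pseudocount of 1, leaving Itgb2l, against 2 to 4 otherwise. At 4-fold, 3 were higher and 1 was lower as deposited. In alternatives chosen after seeing the data, 3 were higher and 1 lower at 4-fold after rescaling to the same sum, whereas 0 were higher with the median, the trimmed mean or the like-level median removed, and 1, 1 and 2 were lower. The difference of log2 Itgb1 over Itgb2 was 2.02 with a pseudocount of 1 and, chosen after seeing the data, 1.84 with the like-level median removed. That of the alpha chains of beta1 over Itgb1 was -0.33 without Itgav. The share of beta2 partners in PBS and with exosomes was 98.1% and 93.8% over the 6 alpha chains followed, 85.8% and 72.0% without Itgam, and 94.9% and 89.6% in estimated reads. Reads are only estimates, since the exon models behind the RPKM are not known, and 1 library a group shows no variation between cultures.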

Other observations

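The features nearest in level over the 2 samples, by Euclidean distance of log2 RPKM, describe how common such values were. Itga4 had close neighbours in Dock10 (1.79 and 9.65 RPKM, distance 0.062), Gm9781 (1.67 and 9.36 RPKM) and Ilf2 (1.74 and 9.26 RPKM). Those of Itgam were Arpc5 (341.84 and 373.5 RPKM, distance 0.149), Eno1 and Myl6. Itgb2l lay farther from any other feature, since the nearest was Tmem38a (12.6 and 1.44 RPKM) at a distance of 0.622, followed by Sema7a and Mgst2. With only 2 samples, likeness in level says nothing of shared control.

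Itga9 and Itga1, chains that pair with beta1, were below the minimum of 0.25 RPKM in both samples and stood at 0.05 and 0.23 and at 0.03 and 0.13 RPKM. Itgae, the partner of beta7 besides alpha 4, was at 0.12 and 0.08 RPKM, and its counting interval of the log2 ratio, -1.42 to 0.24, includes 0.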
